A study of Mus musculus with 4 samples.

Results

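Matrix metalloproteinases (genes Mmp1a to Mmp28), the ADAMTS proteases (Adamts1 to Adamts20) and the tissue inhibitors of metalloproteinases (Timp1 to Timp4) were compared between decitabine-treated and control cells of one mouse ovarian cancer line. The members were all rows of the deposited table whose single platform gene symbol was Mmp, Adamts or Timp followed by a digit, with the row of highest mean kept for each gene. These were 48 rows of 44 genes, of 22180 genes in all: 22 Mmp genes, 18 Adamts genes and 4 Timp genes. Adamts2 and Mmp15 were not analysed here.

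Both protease families are zinc enzymes that cut extracellular proteins. MMPs are made as inactive precursors, secreted or held at the cell surface, and cut collagens, gelatins, other matrix proteins and many signalling proteins. ADAMTS proteases carry thrombospondin repeats that hold them in the matrix, and cut proteoglycans such as aggrecan and versican, process procollagens, or cleave single targets such as von Willebrand factor. TIMPs are small secreted proteins that block the active site of MMPs, and TIMP-3 also blocks several ADAM and ADAMTS enzymes. In ovarian tumours this system remodels the matrix through which cells spread, and in the normal ovary it acts at ovulation.

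The cells were BR5FVB1-Akt, a cultured mouse line labelled ovarian cancer. In the decitabine group 2 samples received 10 uM decitabine for 72 h, and in the control group 2 samples received none. No culture time was listed for the control samples. Decitabine is a cytidine analogue that enters replicating DNA and depletes DNA methyltransferases. Both groups were grown in the same serum-containing medium, the labels list no alleles for the line beyond its name, and 1 line limits the results to that line. Total RNA of each sample was read on 1 Affymetrix Mouse Gene 2.0 ST array. The labels call the samples biological replicates without saying how the cultures were separated, so the p-values speak to the spread of these 4 arrays, which may be technical.

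Levels are the deposited values, read as log2 expression from their range of 0.55 to 13.26. The median over all rows was 4.60 and 4.66 on the decitabine arrays and 4.60 on both control arrays. Of the ovarian surface and mesothelial markers, Wt1 was at 10.6 and 10.5 with decitabine and 10.8 and 10.9 in control cells, while Pax8 lay below 3.82, the 25th percentile of gene levels, on all 4 arrays. In this list of 6 genes, 2 were higher (Msln, 0.86 on the log2 fold change scale, and Lgals7, 0.41) and 2 lower (Amhr2, −0.78, and Wt1, −0.28) at an unadjusted p under 0.05. Epithelial keratins were measured well above the median gene level of 5.23 (Krt18, 9.57 and 9.55 with decitabine, 9.25 and 9.22 in control cells), but Epcam was below it on all 4 arrays. Of 12 epithelial markers, 4 were higher at that p (Krt14, Krt8, Krt18 and Krt19) and 0 were lower, and the list averaged 6.30 and 6.25 with decitabine and 6.05 and 5.98 in control cells. Fibroblast and mesenchymal markers averaged 8.53 and 8.48 with decitabine and 8.29 and 8.25 in control cells over 12 genes, of which Thy1 (2.79-fold), Acta2 (1.65-fold) and Vim were higher and Pdgfra was lower at that p. The share at that p, higher and lower together, was 66.7% of the ovarian surface and mesothelial list, beside 14.3% of all genes. It was 33.3% of the epithelial list and 33.3% of the fibroblast and mesenchymal list. Most markers of these lists lay above the median gene level, where 19.8% of genes had such a p. No gene of these lists passed the adjusted threshold in limma without an intensity trend. When limma's expected spread was allowed to depend on a gene's level, 4 epithelial markers passed higher and 0 lower. In that fit 1 ovarian surface and mesothelial marker passed higher and 3 lower, and 3 fibroblast and mesenchymal markers higher and 1 lower. It called 3.68% of all genes higher and 3.6% lower. The part of the marker shifts in the values below was not tested. Since RNA was taken from whole cultures, fewer cells of a type and less RNA per cell cannot be told apart.

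After decitabine, Adamts5 rose 2.36-fold, the 1 member whose change passed limma's test over all genes (adjusted p = 0.0442). Its neighbour Adamts1 was 1.79-fold higher and Adamts12 2.05-fold lower, neither past the adjusted threshold. Of the inhibitors, Timp1, Timp2 and Timp3 were each 1.33-fold to 1.40-fold higher, with decitabine arrays above control arrays. The collagenase gene Mmp13, the stromelysin gene Mmp10 and the membrane-type gene Mmp14 differed by less than 0.10 on the log2 scale. Mmp13 and Mmp10 lay below the median gene level, and no detection level could be set for them.

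The count of members past an adjusted p under 0.05 was 1 higher and 0 lower, where 0.131% of all genes were called higher and 0.0135% lower in limma. At an unadjusted p under 0.05, 9 of 44 members were higher (20.5%) and 3 were lower (6.82%), beside 7.34% and 6.97% of all genes. Both decitabine arrays lay above both control arrays for 15 members and below them for 11, that is 34.1% and 25%, where all genes gave 23.4% and 22.5%. When the spread that limma expects was allowed to depend on a gene's level (an intensity trend), 7 members were called higher (15.9%) and 3 lower (6.82%), beside 3.68% and 3.6% of all genes. The shares of members called higher lay above the share over all genes under each of these rules, the share called lower lay near it at an unadjusted p, and with the intensity trend it was 6.82% of members beside 3.6% of all genes. No test of the families as sets was made, because the members were chosen with results of these data known.

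Of the 3 families, the Timp genes had the highest median. The median log2 fold change was 0.43 over the 4 Timp genes, 0.07 over the 22 Mmp genes and 0.00 over the 18 Adamts genes, and 0.00 over all genes tested. With an array left out, the Mmp median ran from −0.0138 to 0.132 and the Adamts median from −0.0520 to 0.0497. Over the members above the median gene level, it was 0.31 for 7 Mmp genes and −0.15 for 8 Adamts genes. All 4 Timp genes had a positive fold change, as did 14 Mmp genes and 9 Adamts genes. At an unadjusted p under 0.05, the Mmp genes counted 4 higher (18.2%) and 0 lower, the Adamts genes 2 higher (11.1%) and 3 lower (16.7%), and the Timp genes 3 higher (75%) and 0 lower, beside 7.34% higher and 6.97% lower over all genes. The Adamts genes held the widest range of the families, from −1.04 to 1.24, against −0.33 to 0.71 for the Mmp genes and 0.23 to 0.48 for the Timp genes. A median near 0 in the Adamts family therefore combined genes on either side of it.

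**Figure D1:**
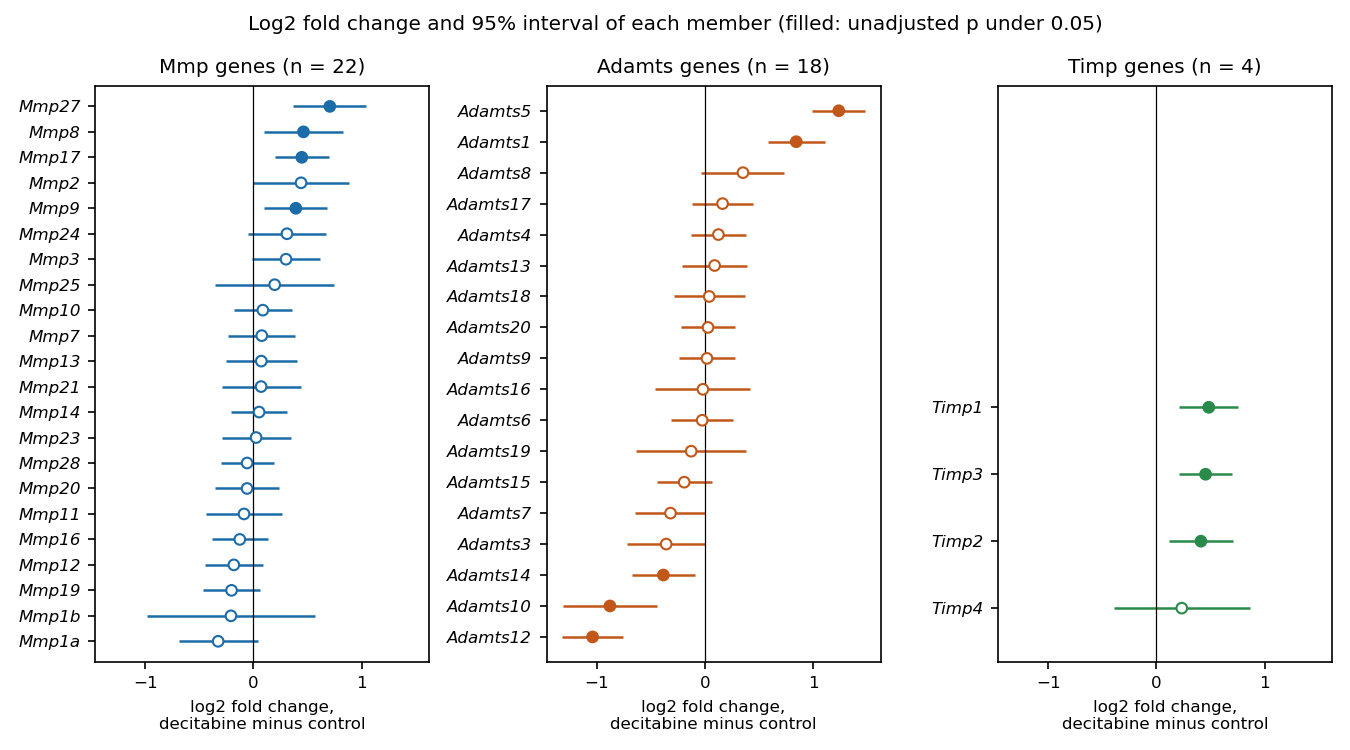
Log2 fold change (decitabine minus control, points) with limma's 95% confidence interval (bars) for each of the 22 Mmp, 18 Adamts and 4 Timp genes; filled points had an unadjusted p under 0.05. Adamts5 (1.24) and Adamts12 (−1.04) lie at the ends of the Adamts panel, and Timp1, Timp2 and Timp3 lie close together between 0.41 and 0.48.

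The 300 bases around the annotated transcription start (250 before and 50 after) are shown for the members that stand at the ends of the families or differed alike, among those with an unadjusted p under 0.05: Adamts1, the neighbour of Adamts5; Adamts12, at the opposite end of that family; the 3 higher Timp genes; and Mmp27. They are RefSeq sequences of build GRCm38.p6, printed 5′ to 3′ along the gene's strand, with CG pairs, the pairs that mammalian DNA methyltransferases act on, in capitals. DNA methylation itself was not analysed here.
Adamts1, chr16:85803064-85803363, minus strand: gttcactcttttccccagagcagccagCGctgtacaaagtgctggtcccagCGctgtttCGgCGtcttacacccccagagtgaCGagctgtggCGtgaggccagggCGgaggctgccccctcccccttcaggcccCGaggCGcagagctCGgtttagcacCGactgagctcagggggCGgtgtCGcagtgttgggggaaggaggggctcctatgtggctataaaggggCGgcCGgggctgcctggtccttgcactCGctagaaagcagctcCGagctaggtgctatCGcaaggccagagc
Adamts12, chr15:11064523-11064822, plus strand: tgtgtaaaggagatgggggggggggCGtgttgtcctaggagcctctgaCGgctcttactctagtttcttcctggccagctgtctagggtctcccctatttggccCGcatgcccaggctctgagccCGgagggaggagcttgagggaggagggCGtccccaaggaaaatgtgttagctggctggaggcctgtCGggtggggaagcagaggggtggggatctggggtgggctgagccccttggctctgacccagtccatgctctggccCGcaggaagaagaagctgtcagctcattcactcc
Timp1, chrX:20869916-20870215, plus strand: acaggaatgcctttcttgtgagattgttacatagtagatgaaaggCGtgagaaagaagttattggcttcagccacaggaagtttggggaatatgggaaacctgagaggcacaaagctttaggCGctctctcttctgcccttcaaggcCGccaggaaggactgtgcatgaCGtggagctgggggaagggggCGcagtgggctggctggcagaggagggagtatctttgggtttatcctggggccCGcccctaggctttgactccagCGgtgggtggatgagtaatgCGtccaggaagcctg
Timp2, chr11:118355362-118355661, minus strand: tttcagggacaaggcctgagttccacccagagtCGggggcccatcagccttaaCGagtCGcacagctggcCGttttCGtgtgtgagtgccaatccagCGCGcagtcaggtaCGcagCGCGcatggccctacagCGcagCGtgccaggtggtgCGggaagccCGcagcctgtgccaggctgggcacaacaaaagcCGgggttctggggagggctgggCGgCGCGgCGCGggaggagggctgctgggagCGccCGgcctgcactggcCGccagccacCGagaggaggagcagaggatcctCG
Timp3, chr10:86300162-86300461, plus strand: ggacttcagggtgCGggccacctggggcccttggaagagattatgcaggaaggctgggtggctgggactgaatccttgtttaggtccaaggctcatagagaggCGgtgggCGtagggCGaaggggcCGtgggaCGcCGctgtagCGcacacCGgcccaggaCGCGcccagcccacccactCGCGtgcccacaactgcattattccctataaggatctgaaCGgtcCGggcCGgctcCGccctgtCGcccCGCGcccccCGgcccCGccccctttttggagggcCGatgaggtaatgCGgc
Mmp27, chr9:7571146-7571445, plus strand: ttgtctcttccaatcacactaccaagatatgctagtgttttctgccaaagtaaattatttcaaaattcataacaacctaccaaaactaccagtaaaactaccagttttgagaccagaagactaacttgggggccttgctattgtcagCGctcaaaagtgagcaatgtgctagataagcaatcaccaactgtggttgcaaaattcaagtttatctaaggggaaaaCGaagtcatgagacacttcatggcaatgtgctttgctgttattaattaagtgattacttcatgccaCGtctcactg

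These windows held 18 CG pairs for Adamts1, 7 for Adamts12, 8 for Timp1, 25 for Timp2, 24 for Timp3 and 3 for Mmp27. The windows shown thus included both CG-rich and CG-poor ones. Adamts14 and Mmp8, also with an unadjusted p under 0.05, had windows of 44 and 4 CG pairs that are not shown. RefSeq windows were at hand for 30 of the 44 members, and the median was 13 CG pairs over 20520 windows of genes tested. Adamts5, Adamts10, Mmp9 and Mmp17, each with an unadjusted p under 0.05, had no window and are missing from the counts that follow. Taking the richest window of a gene, 15 members had 10 or more CG pairs and 15 had fewer. In either class 3 of the 15 genes were higher and 1 was lower at an unadjusted p under 0.05, beside 7.34% and 6.97% of all genes. The median level was 5.77 in the CG-richer class and 4.12 in the other. With so few genes and unlike levels, the part of CG content was not tested.

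Among the proteoglycan-cutting ADAMTS proteases, Adamts5 and Adamts1 stood apart. Adamts5, the main aggrecanase of mouse cartilage, was at 6.53 and 6.56 on the decitabine arrays, against 5.33 and 5.28 on the control arrays (log2 fold change 1.24 ± 0.10, SE, 2 arrays per group). The decitabine arrays were within 0.03 of each other and far above both control arrays. Adamts5 passed in 7 of the 14 alternatives, and the call was lost in the other 7, among them robust eBayes, which gives less weight to genes of unusual spread (adjusted p = 0.0510), all rows of the table fitted (adjusted p = 0.330), and leaving out each array in turn (adjusted p = 0.175 to 0.566), while the log2 fold change stayed between 1.21 and 1.26. Adamts1, which cuts versican and is induced at ovulation, was at 7.47 and 7.38 with decitabine, against 6.53 and 6.63 in control cells (0.84 ± 0.10, adjusted p = 0.0854). Its arrays did not overlap either, and in limma with the intensity trend it passed (adjusted p = 5.19e-04). In the RefSeq annotation Adamts1 and Adamts5 follow each other on chromosome 16 with 0 protein-coding genes between them.

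The other proteoglycan-cutting members did not pass under any setting tried. Adamts4, an aggrecanase induced in inflamed joints, was at 5.89 and 5.81 with decitabine, against 5.73 and 5.71 in control cells, a log2 fold change of 0.12 ± 0.10. Adamts9, a versican-cutting enzyme conserved down to the worm, was at 9.22 and 9.10 with decitabine, against 9.16 and 9.13 in control cells. Its interval, −0.24 to 0.28, held no change as large as 1.5-fold in either direction. Adamts20, its close relative, was at 0.03 ± 0.10 on the fold change scale, Adamts8 at 0.35 ± 0.15 and Adamts15 at −0.19 ± 0.10. Adamts8 and Adamts15 are also listed next to each other, on chromosome 9, and their fold changes had opposite signs. Neither had an unadjusted p under 0.05, and a second row of Adamts8 was at 0.01.

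Adamts12 and Adamts7 form the pair of ADAMTS proteases known to cut cartilage oligomeric matrix protein, and both were lower. Adamts12 was at 5.77 and 5.95 with decitabine, against 6.90 on both control arrays, a log2 fold change of −1.04 ± 0.11 (adjusted p = 0.0758). Its 2 control arrays nearly coincided, and both decitabine arrays lay below them. Adamts12 passed with each array centred on its median (adjusted p = 0.0469), with genes under the 25th percentile of level removed (adjusted p = 0.0289), and with the intensity trend (adjusted p = 4.05e-04). Adamts7 was at 7.92 and 7.80 with decitabine, against 8.29 and 8.06 in control cells (−0.32 ± 0.13, adjusted p = 0.355). Its arrays did not overlap, it passed in none of the settings, and its fold change was −0.20 without control replicate 1 and −0.44 without control replicate 2.

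Adamts10, which binds fibrillin microfibrils, was at 6.90 and 6.51 with decitabine, against 7.69 and 7.47 in control cells (−0.88 ± 0.17, adjusted p = 0.153). Its 2 decitabine arrays differed more than those of Adamts12, and both were below both control arrays. It passed with the intensity trend (adjusted p = 0.00269). Adamts6, its closest relative, was at −0.03 ± 0.11. The procollagen-processing members analysed were Adamts14 and Adamts3. Adamts14 was at 7.60 and 7.48 with decitabine, against 8.0 and 7.84 in control cells (−0.38 ± 0.11, adjusted p = 0.253), and Adamts3, which also activates VEGF-C, was at −0.36 ± 0.14. Both fold changes were negative, and Adamts14 passed with the intensity trend (adjusted p = 0.0303) but in no other setting. A second row of Adamts14 was at −0.13, and with the mean of its rows the fold change was −0.26 (limma, adjusted p = 0.396). Adamts13, the protease of von Willebrand factor, was at 0.09 ± 0.12, and the 4 less studied members Adamts16 to Adamts19 ranged from −0.13 to 0.16.

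**Figure D2:**
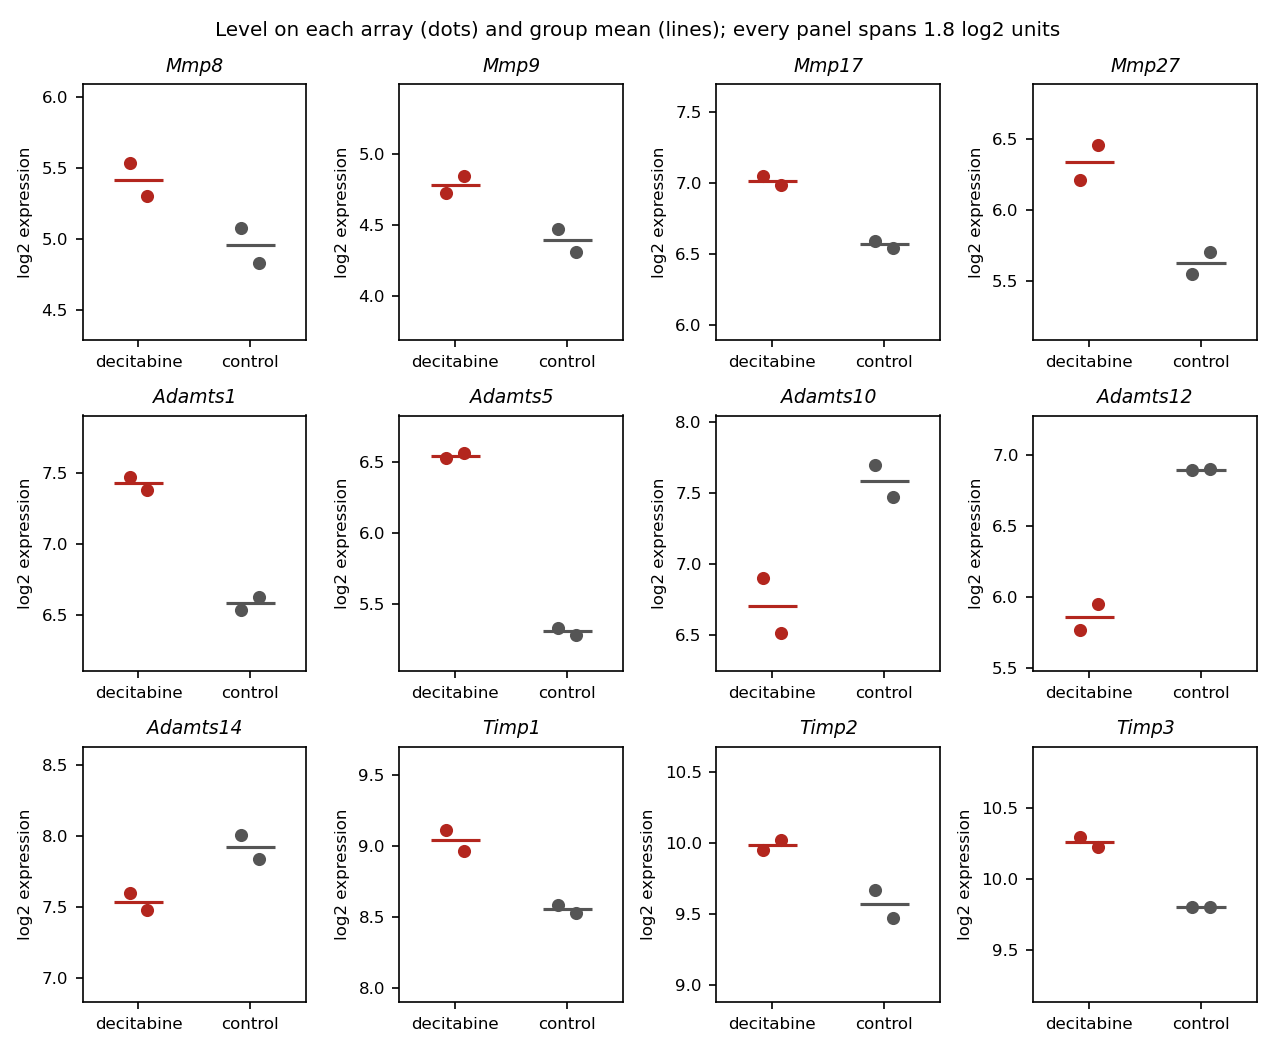
Log2 expression on each of the 4 arrays (dots) and the group means (lines) for the 12 members with an unadjusted p under 0.05, decitabine left and control right; every panel spans the same number of log2 units. Adamts5 sits at 6.53 and 6.56 with decitabine, above its control arrays at 5.33 and 5.28, and Adamts12 shows the opposite order.

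The inhibitor genes Timp1, Timp2 and Timp3 were all higher, by similar amounts. Timp1, an inducible inhibitor that binds the MMP-9 precursor, was at 9.12 and 8.97 with decitabine, against 8.58 and 8.53 in control cells (log2 fold change 0.48 ± 0.11, adjusted p = 0.184). Timp2, which blocks MMPs but also helps MMP-14 activate the MMP-2 precursor, was at 9.95 and 10.0 with decitabine, against 9.67 and 9.47 in control cells (0.41 ± 0.11, adjusted p = 0.238). Timp3, the matrix-bound inhibitor of ADAM and ADAMTS enzymes, was at 10.3 and 10.2 with decitabine, against 9.80 on both control arrays (0.45 ± 0.10, adjusted p = 0.176). The decitabine arrays lay above the control arrays for each of these 3 genes. Their fold changes were positive in all 14 alternative settings, from 0.31 to 0.56, and each passed with the intensity trend (adjusted p = 0.00289, 0.00639 and 8.40e-04) and in the fit of the genes brighter than the median, but in no other setting. Timp4, with the most restricted tissue pattern of the family, was at 4.0 and 3.41 with decitabine, against 3.68 and 3.26 in control cells, at the dim end of the arrays, and its groups overlapped.

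The gelatinases, which cut denatured collagen and basement membrane collagen, had positive fold changes. Mmp2 was at 7.68 and 7.90 with decitabine, against 7.55 and 7.14 in control cells (0.44 ± 0.17, adjusted p = 0.355). The 2 control arrays of Mmp2 differed by about as much as the groups did, and the fold change was 0.65 without control replicate 1 and 0.23 without control replicate 2. Mmp9 was at 4.72 and 4.84 with decitabine, against 4.47 and 4.31 in control cells (0.39 ± 0.11, adjusted p = 0.248), below the median gene level on all 4 arrays. Mmp14, the membrane enzyme that activates the MMP-2 precursor, was at 9.16 and 9.15 with decitabine, against 9.15 and 9.05 in control cells. Its interval ran from −0.20 to 0.31, within 1.5-fold on either side.

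Of the remaining membrane-type enzymes, Mmp17, which is held by a lipid anchor, was at 7.05 and 6.98 with decitabine, against 6.59 and 6.54 in control cells (0.45 ± 0.10, adjusted p = 0.183). Its arrays did not overlap, and it passed with the intensity trend (adjusted p = 0.0221). Mmp25, the other lipid-anchored member, was at 0.20 ± 0.21, with overlapping arrays. Mmp24, known from neurons, was at 5.88 and 5.96 with decitabine, against 5.78 and 5.45 in control cells (0.31 ± 0.14), with a fold change of 0.47 without control replicate 1 and 0.15 without control replicate 2. Mmp16 was at −0.13 ± 0.10. Mmp11, a stromal enzyme that hardly cuts matrix proteins, was at 7.46 and 7.45 with decitabine, against 7.70 and 7.38 in control cells, and its groups overlapped. Mmp19 was at 6.63 and 6.57 with decitabine, against 6.85 and 6.75 in control cells (−0.20 ± 0.10), lower on both arrays and not past the test.

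A block of 10 Mmp genes lies on chromosome 9, in the order Mmp13, Mmp12, Mmp1b, Mmp3, Mmp1a, Mmp10, Mmp8, Mmp27, Mmp20 and Mmp7, with 0 other protein-coding genes between them in the RefSeq annotation. The block did not move together. The neighbours Mmp8 and Mmp27 were higher at an unadjusted p under 0.05, and the other 8 genes lay between −0.33 and 0.30. Mmp27, a little-studied enzyme related to the stromelysins, was at 6.21 and 6.46 with decitabine, against 5.55 and 5.71 in control cells (0.71 ± 0.13, adjusted p = 0.150). Mmp8, the collagenase of neutrophils, was at 5.53 and 5.30 with decitabine, against 5.08 and 4.83 in control cells (0.46 ± 0.14, adjusted p = 0.266). In both genes the decitabine arrays lay above the control arrays, and Mmp27 passed with the intensity trend (adjusted p = 0.0103).

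The genes of this block best known from invading cells and inflamed tissue showed little. The log2 fold change was 0.07 ± 0.13 for the collagenase gene Mmp13, 0.09 ± 0.11 for the stromelysin gene Mmp10 and 0.30 ± 0.12 for the stromelysin gene Mmp3. It was −0.18 ± 0.10 for Mmp12, the elastase of macrophages, and 0.08 ± 0.12 for Mmp7, the matrilysin of gland epithelium. Their levels, between 2.85 and 5.07 over all arrays, were below the median gene level, and no detection level could be set for them. Mmp1a and Mmp1b, the mouse interstitial collagenase copies, were at 1.5 to 2.36 over all arrays. They are related copies, and whether their probes tell them apart was not tested. Mmp20, the enamel protease, was at −0.06 ± 0.12.

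**Figure D3:**
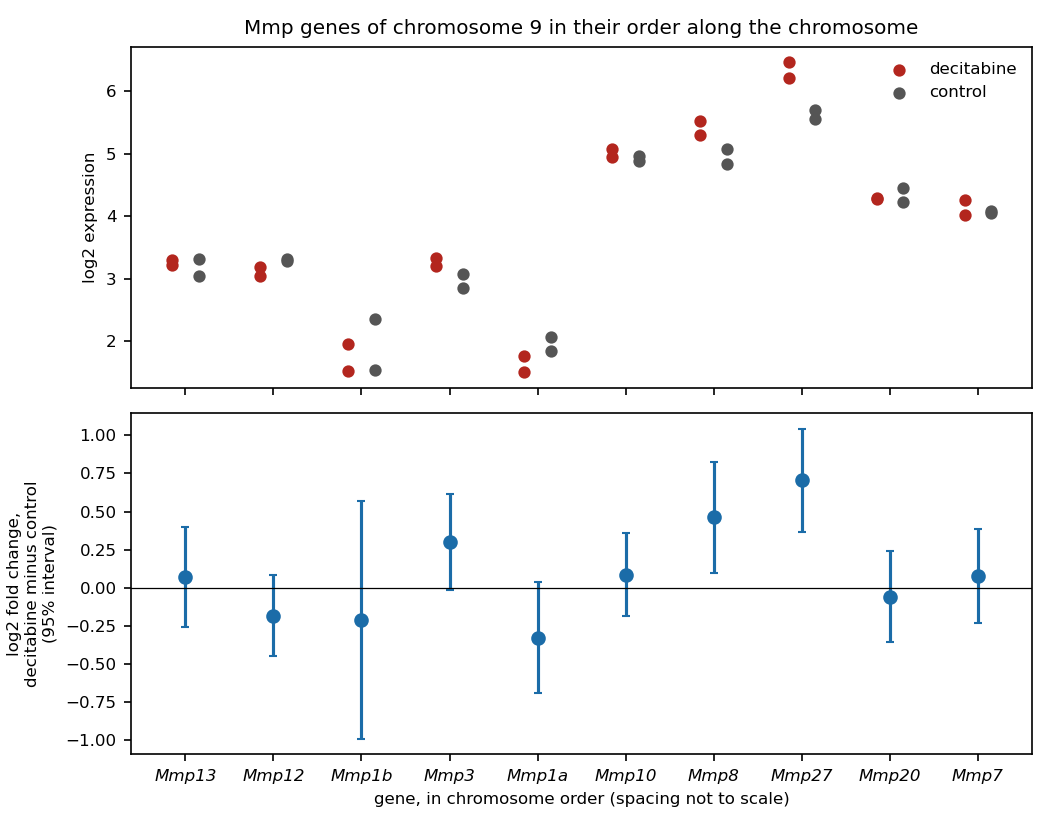
Mmp genes of chromosome 9 in their order along the chromosome (spacing not to scale). Top, log2 expression on each array with decitabine left of control; bottom, log2 fold change with its 95% interval. Mmp8 (0.46) and Mmp27 (0.71) are neighbours, and the other 8 intervals reach across 0.

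Promoter letters differed along the same block. The AP-1 letters TGACTCA, read on both strands, occurred in a window of 7 of the 10 genes (Mmp1a, Mmp1b, Mmp3, Mmp7, Mmp10, Mmp12 and Mmp13) and in no window of Mmp8, Mmp20 and Mmp27. None of the 7 had an unadjusted p under 0.05, which 14.3% of all genes had. These 7 genes lay below the median gene level, and of the genes at or below it 8.80% had such a p. The 20 other members with a window held the AP-1 letters in 0 cases, and 4.76% of all windows of genes tested held them. TATAAA on the sense strand was in a window of 8 of the 10 genes, and in 7.83% of all windows. The ETS letters GGAAGT, on both strands, were in 30.3% of the 33 member windows and 24.8% of all windows. A loose NF-kB pattern (GGG, any NNNN, TCC, both strands), which can overlap the ETS letters, was in 30.3% of the member windows and 20.9% of all windows, the Timp1, Timp3 and Timp4 windows among them. These matches describe letters only, and binding was not measured.

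Because Mmp8 and Mmp9 are made by leukocytes, leukocyte markers are given beside them. Over 14 measured leukocyte markers the mean level was 3.98 and 4.08 on the decitabine arrays, against 3.97 and 3.91 on the control arrays, and 2 of the 14 lay above the median gene level. Ptprc, the pan-leukocyte antigen, was at 3.24 and 3.16 with decitabine, against 3.01 and 3.07 in control cells. At an unadjusted p under 0.05, Cd68 and Itgam were higher and 0 were lower, which is 14.3% of the list, beside 14.3% of all genes at that p. Most of these markers lay at or below the median gene level, where 8.80% of genes had such a p. Endothelial markers averaged 4.85 and 4.90 with decitabine, against 4.78 and 4.67 in control cells over 8 genes, with 3 higher (37.5%) and 0 lower. The part of other cells in the levels of Mmp8 and Mmp9 was not tested.

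The remaining Mmp genes are known from single tissues or developmental steps. Mmp21, which acts in left-right patterning, was at 0.07 ± 0.14, Mmp23, known from human ovary and testis, at 0.02 ± 0.12, and Mmp28, known from human epidermis and testis, at −0.06 ± 0.10. Of all 44 members, 39 had a 95% interval that held no 2-fold change in either direction, and for 21 it held no 1.5-fold change. The 5 others were Adamts1, Adamts5, Adamts10, Adamts12 and Mmp27.

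**Figure D4:**
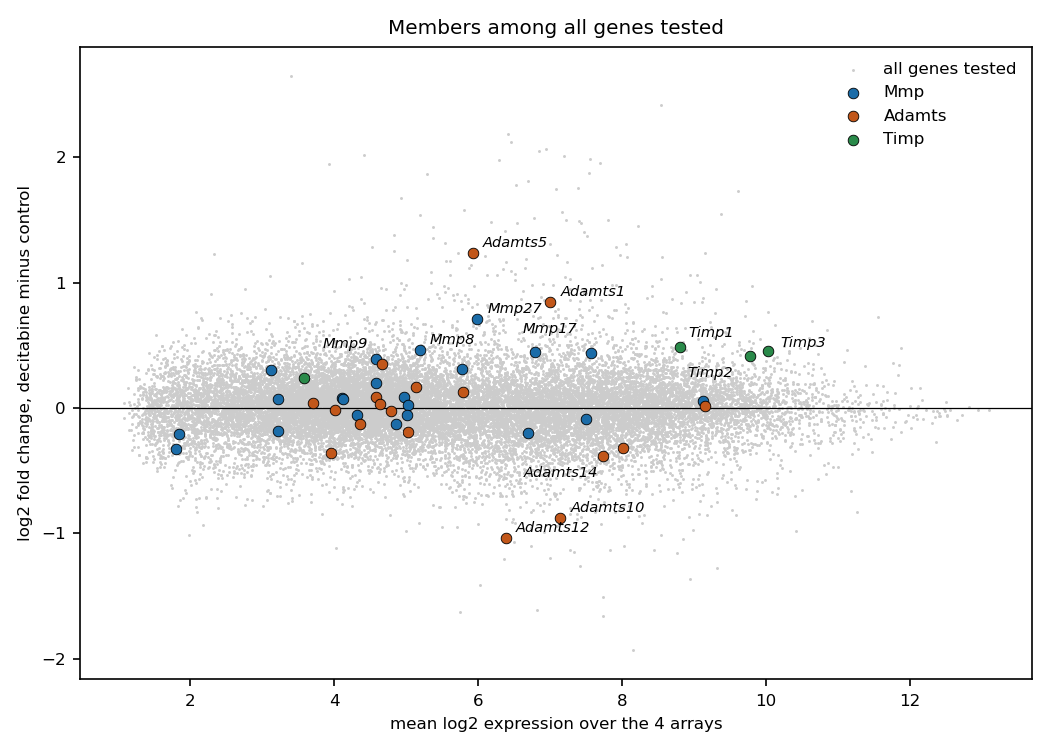
Log2 fold change (decitabine minus control) against mean log2 expression over the 4 arrays, for all 22180 genes (grey) and for the members (coloured by family); members with an unadjusted p under 0.05 are named. Most named members lie above a mean level of 5.23, the median of all genes.

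The members that differed were mostly bright ones. Of the 18 members above the median level, 10 had an unadjusted p under 0.05 (55.6%, beside 19.8% of all genes above that level). Of the 26 at or below it, 2 did, Mmp8 and Mmp9 (7.69%, beside 8.80% of all genes there). The median size of the fold change was 0.43 in the brighter members and 0.13 in the dimmer ones, where it was 0.14 and 0.13 over the genes of those levels.

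**Figure D5:**
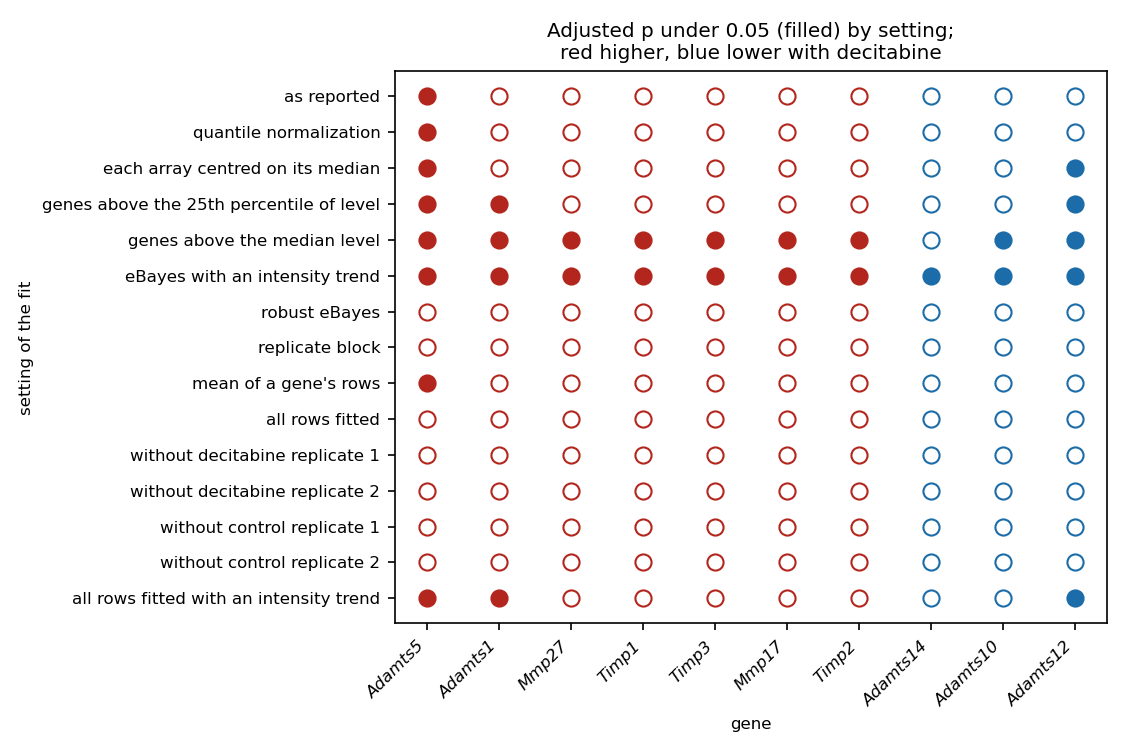
Members that passed an adjusted p under 0.05 in at least 1 setting of the fit (columns, by fold change) against the setting (rows); filled circles passed, red is higher and blue lower with decitabine. Adamts5 passed in 7 of the 14 alternatives and Adamts12 in 5, and no member passed when an array was left out.

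Related genes from lists of the same system were read from the same fit. Among 11 measured inhibitors and clearance receptors of metalloproteases, 1 rose and 0 fell over all genes. It was Fetub, which codes for fetuin-B, an inhibitor of the egg protease ovastacin, at 6.16 and 6.12 with decitabine, against 4.99 and 4.95 in control cells (1.17 ± 0.10, adjusted p = 0.0449). The list's median was 0.09, and Tfpi2, a matrix-bound serine protease inhibitor, was at 0.40 ± 0.15. Fetub passed in 7 of the 14 alternatives and lost its call in the other 7, among them robust eBayes (adjusted p = 0.0527), all rows fitted (adjusted p = 0.330) and leaving out any 1 array (adjusted p = 0.180 to 0.566).

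None of the genes in the other 6 lists passed over all genes in limma without the intensity trend. With that trend, 3 activators and inducers, 1 substrate and 3 transcription factors passed higher and 0 lower. Of the ADAM proteases 1 passed higher and 2 lower, and of the ADAMTS-like proteins 2 higher and 1 lower. Of the astacin and other matrix proteases 1 passed higher and 0 lower. The same fit called 3.68% of all genes higher and 3.6% lower. The counts that follow are at an unadjusted p under 0.05, which 14.3% of all genes had. Of 20 activators and inducers, 6 did (4 higher, 2 lower, 30% of the list), led by the urokinase receptor gene Plaur (0.92 ± 0.10, adjusted p = 0.0762) and the urokinase gene Plau (0.98 ± 0.14, adjusted p = 0.106), whose plasmin activates MMP precursors. Of 16 substrates of ADAMTS proteases, 2 were higher and 0 lower (12.5%, no more than over all genes), the proteoglycan versican (Vcan, 0.67 ± 0.11, adjusted p = 0.133) and Ltbp1 (0.47 ± 0.18). Versican is a substrate of both Adamts1 and Adamts5. Of 15 transcription factors known from metalloprotease promoters, 3 were higher and 2 lower (33.3%), with the ETS factors Etv4 (0.71 ± 0.11) and Ets1 (0.60 ± 0.12) in front. All 15 lay above the median gene level, where 19.8% of genes had such a p.

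Of 32 ADAM proteases, the membrane-anchored relatives of ADAMTS enzymes, 3 did (1 higher, 2 lower, 9.38%, below the share over all genes), with a median of −0.05. The lower ones were Adam26b (−0.52 ± 0.09), a testis gene at the dim end of the arrays, and Adam33 (−0.44 ± 0.10). Of 7 ADAMTS-like proteins, which carry the ADAMTS ancillary domains without a protease, 2 were higher and 2 lower (57.1%), with Adamtsl5 at 0.72 ± 0.13 and Papln at −0.62 ± 0.10. Of 15 genes listed as astacin and other matrix proteases, 3 were higher and 0 lower (20%). Among them were heparanase (Hpse, 0.91 ± 0.13, adjusted p = 0.106) and cathepsin K (Ctsk, 0.46 ± 0.13). Heparanase cuts heparan sulphate chains and is not itself a protease. The medians of these 7 lists ran from −0.05 to 0.19, beside 0.00 over all genes.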

How the data were processed

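Per the labels' protocols, total RNA was column-purified and biotin-labelled with a whole-transcript kit before hybridisation. The authors deposited 1 value per row and array, taken here as log2 expression because no cell was missing and the range was that of log2 intensities. Log base, summarisation, background correction and normalization are not given in the sources used here. Another base would change every fold change, and no detection level could be set.

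The platform annotation gave 1 gene symbol to 23521 of 41345 rows, several to 1814 and none to 16010, and 1 row shared by Mmp24 and another gene was left out. All 44 members matched RefSeq (GRCm38.p6) by Entrez identifier with 0 symbols changed. That table gave chromosomes and gene order only, since the values come with no build. The table held 0 columns of other series.

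The 22180 genes were fitted together with limma 3.58.1 in R 4.3.3 (group as the only term, two-sided, no intensity trend, Benjamini-Hochberg over all genes). Errors are limma's SE, and intervals are 95%. The fit was tested on simulated data. Groups and replicate numbers came from the titles. Members and lists were chosen with earlier results of these data known. Values on each array are given for all Timp genes and for Mmp and Adamts genes with an unadjusted p under 0.05 or a mean above the median gene. From each list the 2 genes of smallest p and those past the threshold are named, and markers are given as lists, with single markers named after their values were seen. A planned search of protein letters was not made. Alternatives were quantile normalization, centred arrays, level filters, the replicate number as a block, robust eBayes, an intensity trend, other uses of a gene's rows and leaving out each array. Fitting all rows with a trend was chosen after seeing the data. Figures were drawn with matplotlib 3.10.9.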

Additional observations from a re-analysis of the deposited data

How the results depend on the processing

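Results were recomputed in 14 alternatives, except that the level filters removed dim members. Members called higher, 1 as reported, numbered 2 with the genes under the 25th percentile removed or with all rows fitted with a trend, 7 among genes above the median level or with the intensity trend, and 0 with robust eBayes, the replicate block, all rows fitted or any array left out. In those settings of limma without calls, 10 to 14 members had an unadjusted p under 0.05, against 12 as reported. With the replicate block Adamts5 and Fetub each had an adjusted p of 0.145. Members called lower, 0 as reported, numbered 1 with centred arrays, above the 25th percentile or with all rows and a trend, 2 above the median level and 3 with the trend. Members lower at an unadjusted p, 3 as reported, numbered 5 with centred arrays, with either level filter and with the replicate block. Over all genes, 29 higher and 3 lower became 817 and 798 with the trend, 635 and 616 above the median level, 151 and 64 above the 25th percentile, 43 and 8 with centred arrays, 15 and 3 with robust eBayes, 114 and 51 with all rows and a trend, and 0 with the replicate block, all rows or an array left out.

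The same-numbered arrays did not deviate together (correlation −0.02), so the block stands for no known pairing. Above the median level the median was 0.31 over 7 Mmp genes and −0.15 over 8 Adamts genes. With an array left out, the medians ran from −0.0138 to 0.132 (Mmp, lowest without decitabine replicate 2), from −0.0520 to 0.0497 (Adamts, lowest without control replicate 2) and from 0.38 to 0.51 (Timp). The sign turned for Mmp11 without control replicate 1 (range −0.247 to 0.0715), Adamts9 without decitabine replicate 1 (−0.0391 to 0.0765) and with centred arrays (−0.0061), and Timp4 without decitabine replicate 1 (−0.0591 to 0.529). The cause was not tested. No signal over background could be set, so dim members are the least certain. A lone array was taken to vary like the other group.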

Other observations

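Timp1, Timp3 and Timp4 each lie within the span of a synapsin gene in the RefSeq annotation, and the host genes were read as well. Syn1, the host of Timp1, had a log2 fold change of 0.18 ± 0.14 (SE), Syn3, the host of Timp3, one of 0.07 ± 0.10, and Syn2, the host of Timp4, one of 0.04 ± 0.20. None passed in limma (adjusted p = 0.621, 0.814 and 0.952). The mean levels were 5.95 for Syn1, 4.59 for Syn3 and 4.41 for Syn2. Syn3 and Syn2 thus lay below the median gene level of 5.23, and no detection level could be set for them. The fold changes of Timp1 and Timp3, 0.48 and 0.45, were larger than those of their hosts, and the differences were not tested.

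For 4 members a second row was present. For Adamts14 the kept row was at −0.38 and the other at −0.13, for Adamts8 at 0.35 and 0.01, for Mmp11 at −0.09 and 0.07, and for Mmp7 at 0.08 and −0.14. The 2 rows of Mmp11 and of Mmp7 thus had opposite signs. The row that Mmp24 shares with BC029722 was at 7.20 and 7.25 with decitabine and 7.23 and 7.15 in control cells, a difference of 0.03.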
